A study of Macaca mulatta with 12 samples.

Results

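The ZFP36 family is a small group of RNA binding proteins that shorten the life of messenger RNAs. Its members ZFP36 (tristetraprolin), ZFP36L1 and ZFP36L2 were looked for by symbol among the Ensembl gene identifiers of a rhesus macaque liver transcript table, and transcripts of 1 identifier were summed. Of the 3 named members, 2 were found, ZFP36 and ZFP36L1, among 23993 genes in all. ZFP36L2 was not analysed here.

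Proteins of this family carry a tandem pair of CCCH zinc fingers that bind AU-rich elements in the 3′ ends of mRNAs and recruit the CCR4-NOT deadenylase, which shortens the poly(A) tail and starts decay. ZFP36 is itself an immediate early gene, switched on within minutes by serum, cytokines or bacterial products, and in mice its loss leaves the mRNA of the cytokine TNF too stable and causes systemic inflammation. In mouse liver or in human and mouse liver cells, family members have been reported to act on the mRNAs of CYP7A1 and FGF21, which serve bile acid synthesis and fasting metabolism.

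RNA came from liver biopsies of 6 male rhesus macaques of about 4.6 years, taken before ethanol (baseline) and after an induction of 90 days (post-induction), in which every animal drank the same daily ethanol dose, 0.5, 1 and 1.5 g per kg in successive blocks of 30 days. The 4 groups of 3 libraries were VHD post-induction, VHD baseline, LD post-induction and LD baseline. VHD (very heavy drinkers) and LD (light drinkers) name what the same animals drank later, 4.0 and 1.5 g per kg per day over 12 months of free access, so no biopsy used here follows heavy drinking and no animal without ethanol is among the groups. Ethanol therefore cannot be told apart from elapsed time, age or an earlier biopsy. Per the labels, 500 ng of RNA with an RNA integrity number above 8.5 entered a NEXTFLEX Combo-Seq preparation, read at 76 bases.

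Library totals ran between 5970033 and 25060718 counts, with 20801 to 23405 genes detected. The tissue label was checked with 9 hepatocyte markers found of 10 named, whose summed level was 149030 to 260910 CPM post-induction and 139630 to 255820 CPM at baseline. CPM is edgeR's depth-scaled count, with the library total scaled by TMM factors, and is not corrected for transcript length. In a principal component analysis, VHD post-induction 2 and VHD baseline 3 stood apart on the second component, with 20.6% of the variance, at scores of 82.3 and 92.6 against at most 26.5 in the other 10 libraries. On the first component, with 31.4% of the variance, VHD post-induction 1 and 3, VHD baseline 2 and LD post-induction 2 and 3 lay below 0. Most of these were post-induction libraries, so the side of the first component partly followed the time point. For the members and some gene lists, edgeR fits without the libraries apart on the second component, or with a term for that side, are also given. Changes per animal, the ratio of the members, correlations and DESeq2 calls used all 12 libraries.

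ZFP36 (ENSMMUG00000038702) had 1 transcript in the table, ENSMMUT00000068771, on the plus strand of chromosome 19 from 35154582 to 35157445 in Mmul_8.0.1. ZFP36L1 (ENSMMUG00000044603) had 1 transcript, ENSMMUT00000069467, on the minus strand of chromosome 7 from 130940200 to 130949362. No other transcript of the table overlapped either gene. The nearest gene to ZFP36 was PLEKHG2, 4708 bases away, and the nearest to ZFP36L1 was ACTN1, 84565 bases away. Both members had whole-number counts in 12 of 12 libraries, whereas 40.1% of all values in the table were whole, so no count of theirs had been divided into fractions. Average log2 CPM stood at percentile 96.1 of the genes tested for ZFP36 and at percentile 98.6 for ZFP36L1. Levels of the 2 genes are not compared with each other, since the values are not corrected for length.

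ZFP36 mRNA was lower after the ethanol induction than before it in each of the 6 animals. VHD post-induction 1, 2 and 3 had 19.7, 58.1 and 21.7 CPM of ZFP36, from 143, 1061 and 482 counts. VHD baseline 1, 2 and 3 had 279.6, 158 and 379 CPM, from 2701, 2564 and 10246 counts. All 3 VHD biopsies taken post-induction lay below all 3 taken at baseline.

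In light drinkers, LD post-induction 1, 2 and 3 had 27.9, 23.8 and 64.9 CPM of ZFP36, from 526, 368 and 677 counts. LD baseline 1, 2 and 3 had 163, 228 and 355 CPM, from 941, 3601 and 4941 counts. Here too the time points did not overlap. The share of all genes whose time points separate in this way was not counted. The lowest value of all, in VHD post-induction 1, had a 95% Poisson interval of 16.6 to 23.2 CPM, which covers counting error only and lies far below every baseline value.

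Group means of ZFP36 were 33.2 ± 21.6 CPM in VHD post-induction, 272 ± 111 CPM in VHD baseline, 38.9 ± 22.6 CPM in LD post-induction and 249 ± 97.8 CPM in LD baseline (SD, n = 3 each). In rising order the groups were VHD post-induction, LD post-induction, LD baseline and VHD baseline. The classes, neighbours in that order at each time point, did not differ beyond their spread, while the 6 post-induction values (19.7 to 64.9 CPM, median 25.8) and the 6 baseline values (158 to 379 CPM, median 254) were separate. In bulk liver RNA, fewer cells of a type and less RNA per cell cannot be told apart.

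**Figure D1:**
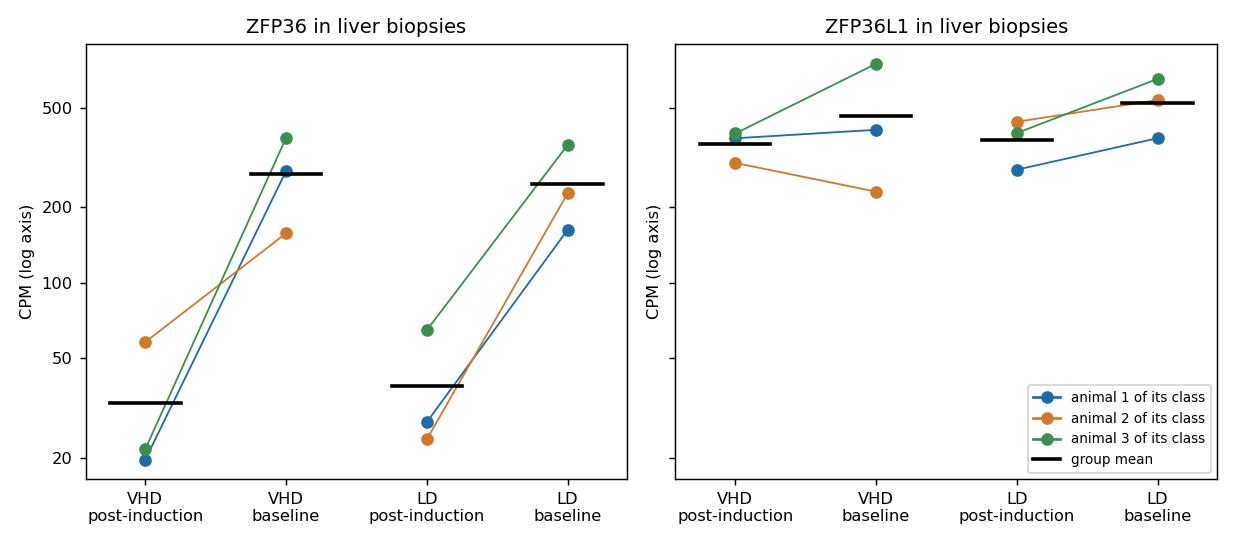
Level of ZFP36 and ZFP36L1 in each liver library, in CPM on a log axis, by group, with points for libraries, lines joining the libraries of 1 animal and short black bars for group means. The 6 post-induction libraries lie between 19.7 and 64.9 CPM for ZFP36, all below the lowest baseline library at 158 CPM, while the ZFP36L1 values of the 2 time points overlap.

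Taken over both drinking classes, ZFP36 fell by 2.86 on the log2 scale (SE 0.40, 95% interval -3.71 to -2.0), with an adjusted p of 0.0246 by edgeR's quasi-likelihood test and Benjamini-Hochberg adjustment over 18373 genes. That is a level 7.24-fold lower post-induction than at baseline, with an interval of 4.00-fold to 13.1-fold. In this mean response 1 of the 2 members passed the threshold of 0.05, beside 0.267% of all genes tested (3 higher and 46 lower). ZFP36 had the 4th smallest p of all genes and the 18th largest fall. Among the 724 genes at least as abundant by average CPM it had the 2nd largest fall. The median log2 change of all genes was 0.07.

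The call came from a fit without a term for the animal, and it depended on the model and on single libraries. A limma voom fit with a random animal effect kept it (-2.93, adjusted p = 0.00721). With the animal as a replicate block in edgeR the change was -2.96 ± 0.38 and the adjusted p 0.0637. The call was also lost, with the same direction, without VHD post-induction 1 (adjusted p = 0.0649), VHD post-induction 3 (0.0573), VHD baseline 1 (0.0505), LD post-induction 2 (0.0936) or LD baseline 3 (0.0772), each by edgeR. Without animal VHD3, which had the largest change, the log2 change was -2.61 with an adjusted p of 0.061. When VHD post-induction 2 and VHD baseline 3, the libraries apart on the second component, were left out it was -3.04 with an adjusted p of 0.0219, and with a term for the side of the first component it was -2.48 with an adjusted p of 0.0282.

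Within animals, ZFP36 post-induction minus baseline, in log2 CPM, was -3.82, -1.44 and -4.12 in VHD1, VHD2 and VHD3. In LD1, LD2 and LD3 it was -2.54, -3.25 and -2.45. These correspond to levels 14.1-fold, 2.71-fold and 17.3-fold lower in the VHD animals and 5.82-fold, 9.53-fold and 5.46-fold lower in the LD animals. VHD2, whose post-induction library is one of those standing apart, had the smallest change, and VHD3, whose baseline library is the other, the largest. The mean was -2.94 ± 0.99 (SD, n = 6 animals), lower in 6 of 6, and a two-sided exact sign-flip permutation test gave p = 0.03125, the smallest that 6 animals allow.

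ZFP36L1, the paralog, was not called. VHD post-induction 1, 2 and 3 had 378, 301 and 395 CPM of ZFP36L1, from 2736, 5497 and 8745 counts, and VHD baseline 1, 2 and 3 had 408, 231 and 748 CPM, from 3942, 3756 and 20212 counts. The highest and the lowest of all 12 values were both VHD baseline libraries, numbers 3 and 2. LD post-induction 1, 2 and 3 had 283, 439 and 396 CPM, from 5338, 6795 and 4133 counts, and LD baseline 1, 2 and 3 had 378, 536 and 651 CPM, from 2184, 8477 and 9063 counts. The time points overlapped in both classes.

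Group means of ZFP36L1 were 358 ± 49.8 CPM in VHD post-induction, 463 ± 263 CPM in VHD baseline, 373 ± 80.8 CPM in LD post-induction and 522 ± 137 CPM in LD baseline (SD, n = 3 each). No neighbours in the order of these means differed beyond their spread. Its mean response was -0.43 ± 0.29 on the log2 scale (95% interval -1.05 to 0.20), with an adjusted p of 0.772 by edgeR. The interval reaches from 2.08-fold lower to 1.15-fold higher, so a change within those bounds is not excluded at this spread. Without VHD post-induction 2 and VHD baseline 3 the value was -0.11 ± 0.26.

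Animal by animal, ZFP36L1 changed by -0.11, 0.38 and -0.92 in VHD1, VHD2 and VHD3 and by -0.42, -0.29 and -0.72 in LD1, LD2 and LD3. The mean was -0.35 ± 0.46 (SD, n = 6), lower in 5 of 6 animals, with p = 0.125 in the exact sign-flip permutation test. VHD2 was the animal in which the post-induction value was higher.

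The change differed between the paralogs. Their ratio within a library does not depend on how libraries are scaled. Per 100 ZFP36L1 counts there were 5.23, 19.3 and 5.51 ZFP36 counts in VHD post-induction 1, 2 and 3 and 68.5, 68.3 and 50.7 in VHD baseline 1, 2 and 3. In LD post-induction 1, 2 and 3 there were 9.85, 5.42 and 16.4, and in LD baseline 1, 2 and 3 there were 43.1, 42.5 and 54.5. Every post-induction ratio (5.23 to 19.3) was below every baseline ratio (42.5 to 68.5). The ratio compares libraries and says nothing of which gene has more mRNA, since lengths differ.

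Means of the ratio were 10.01 ± 8.05 in VHD post-induction, 62.5 ± 10.2 in VHD baseline, 10.6 ± 5.52 in LD post-induction and 46.7 ± 6.78 in LD baseline (SD, n = 3 each). The log2 change of ZFP36 minus that of ZFP36L1 was -3.70, -1.82 and -3.19 in VHD1, VHD2 and VHD3 and -2.12, -2.96 and -1.73 in LD1, LD2 and LD3. Its mean was -2.59 ± 0.81 (SD, n = 6), a 6.02-fold lower ratio, with p = 0.03125 in the exact sign-flip permutation test, again the smallest possible. This was the 1 pair of members that could be compared.

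**Figure D2:**
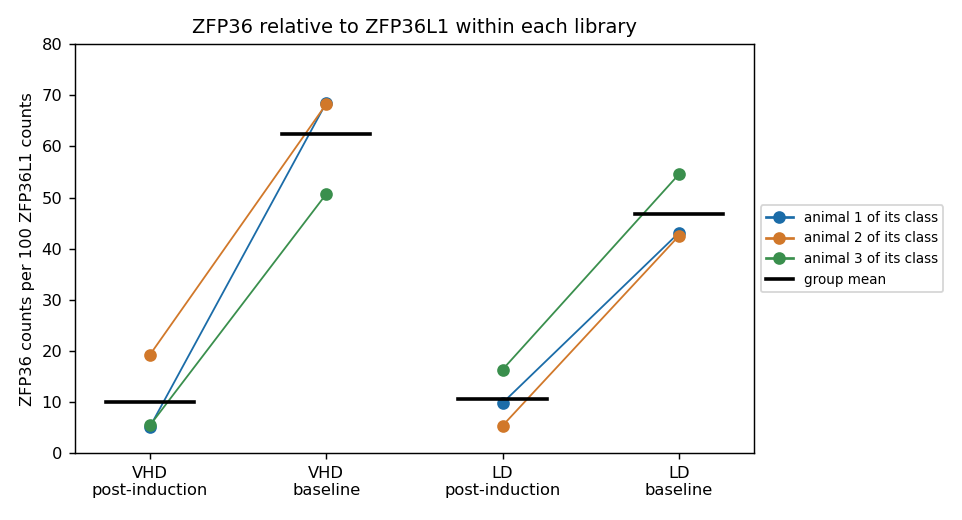
ZFP36 counts per 100 ZFP36L1 counts in each library, by group, with lines joining the libraries of 1 animal and black bars for group means. The ratio is 5.23 to 19.3 post-induction and 42.5 to 68.5 at baseline, lower post-induction in 6 of 6 animals.

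Neither member passed the test in any comparison of the drinking classes. In the VHD response taken alone, ZFP36 changed by -3.03 ± 0.57 (95% interval -4.25 to -1.81, adjusted p = 0.287 by edgeR) and ZFP36L1 by -0.37 ± 0.41. In the LD response they changed by -2.68 ± 0.56 (interval -3.88 to -1.48, adjusted p = 0.482 by edgeR) and -0.49 ± 0.41. No member was called in either, and the share of all genes called was 0% in both, with 632 and 1047 genes at an unadjusted p under 0.05 in the VHD and the LD response. DESeq2 called 64 of 11852 genes in the VHD response and 53 of 13243 in the LD response, ZFP36 among both, with adjusted p of 0.000131 and 0.00147.

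The VHD response minus the LD response was -0.35 ± 0.74 for ZFP36 (95% interval -1.95 to 1.24) and 0.11 ± 0.58 for ZFP36L1 (interval -1.13 to 1.36). Neither was called by edgeR, and 0% of genes were, with 239 at an unadjusted p under 0.05 and 1 by DESeq2. Over animals, the mean ZFP36 change was -3.12 ± 1.47 in VHD and -2.75 ± 0.44 in LD (SD, n = 3 each), with p = 0.8 in an exact permutation test whose smallest p is 0.1. Among the VHD animals the change varied more widely, from -4.12 to -1.44. For ZFP36L1 the same exact permutation test gave p = 0.6, and for the change in the ratio p = 0.4.

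At baseline, before any ethanol, ZFP36 in VHD against LD was 0.13 ± 0.52 on the log2 scale (95% interval -1.0 to 1.26) and ZFP36L1 was -0.17 ± 0.41 (interval -1.06 to 0.71). Neither was among the 0.00544% of genes called by edgeR, which is 1 gene. Post-induction the VHD against LD values were -0.22 ± 0.53 for ZFP36 (interval -1.36 to 0.91) and -0.06 ± 0.41 for ZFP36L1 (interval -0.94 to 0.82). There 0% of genes were called by edgeR, with 448 at an unadjusted p under 0.05 and 1 by DESeq2. All these intervals hold differences of more than 1.5-fold in either direction, so equality of the classes is not shown.

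**Figure D3:**
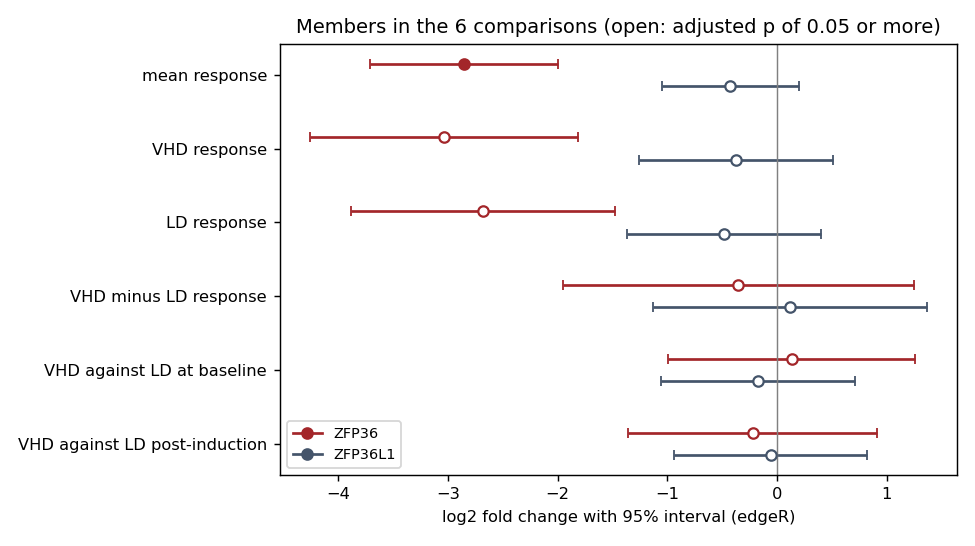
Log2 fold changes of ZFP36 and ZFP36L1 in the 6 comparisons, with bars for 95% intervals from edgeR. Of the 12 values 1 is called, the mean response of ZFP36 at -2.86, and the class comparisons of both members straddle 0.

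The genes whose level followed ZFP36 most closely over the 12 libraries were sought among 10490 genes that carry a symbol and average 1 or more in log2 CPM. Highest was JUNB, which forms part of AP-1, with a Pearson r of 0.957 (0.918 within the 6 baseline and 0.715 within the 6 post-induction libraries). KLF6, a zinc finger transcription factor induced by injury, had r = 0.951 (0.517 at baseline, 0.631 post-induction). HAMP, which encodes the iron hormone hepcidin, had r = 0.943 (0.763 at baseline, 0.771 post-induction). SQSTM1, the autophagy receptor p62, and ZNF274, a zinc finger protein, both had r = 0.935, with lower values within the baseline libraries (0.446 and 0.380). By Spearman's rank correlation the nearest 5 were JUNB, HAMP, U2AF1, GADD45B and FBXO42, of which 2 are shared with the Pearson order, and KLF6 ranked 35. These correlations are descriptions over libraries that come in pairs from 6 animals and share the change between time points.

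JUNB was itself at 2.90, 8.27 and 1.04 CPM in VHD post-induction 1, 2 and 3 and at 80.3, 16.6 and 72.2 CPM in VHD baseline 1, 2 and 3. In LD post-induction 1, 2 and 3 it was at 4.24, 0.776 and 4.60 CPM and in LD baseline 1, 2 and 3 at 18.9, 46.1 and 61.2 CPM. Within each time point, VHD post-induction 2 was the highest of the 6 and VHD baseline 2 the lowest, so animal VHD2 had the smallest change in JUNB as it had in ZFP36. Mean responses of the 5 genes were -3.75 ± 0.61 for JUNB, -2.40 ± 0.27 for KLF6, -2.02 ± 0.40 for HAMP, -1.37 ± 0.24 for SQSTM1 and -1.0 ± 0.19 for ZNF274. By edgeR the adjusted p was 0.0268, 0.0117, 0.065, 0.0357 and 0.047 in the same order, so HAMP missed the threshold.

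The genes nearest to ZFP36L1 were others. ERN1, the endoplasmic reticulum stress sensor IRE1, had r = 0.875 over 12 libraries, and 0.914 and 0.864 within the baseline and post-induction libraries. GPRC5B, an orphan receptor, had r = 0.820. SDHAF3, an assembly factor of succinate dehydrogenase, had r = 0.807 but 0.260 within the post-induction libraries, and STRIP2 had r = 0.794. By Spearman's correlation 2 of the nearest 5 were shared, GPRC5B ranked 1, ERN1 10 and STRIP2 115.5. None of the 5 genes nearest to ZFP36L1 was called in the mean response. ZFP36 and ZFP36L1 themselves correlated at 0.484 over the 12 libraries, at 0.868 within the 6 baseline and at -0.274 within the 6 post-induction libraries.

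**Figure D4:**
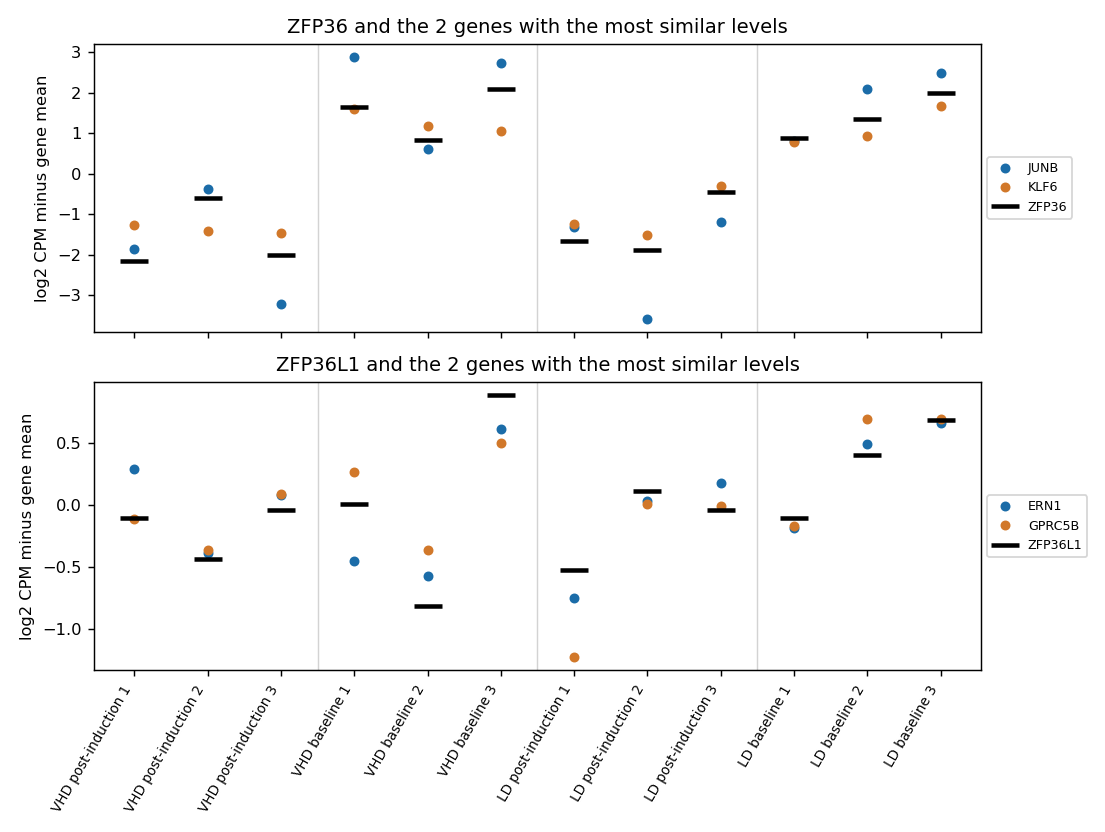
Levels over the 12 libraries of each member and of the 2 genes with the highest Pearson r to it, as log2 CPM relative to each gene's own mean. JUNB and KLF6, plotted with ZFP36, part by time point, as ZFP36 does, and ERN1 and GPRC5B, plotted with ZFP36L1, overlap between the time points.

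The machinery through which these proteins act was measured next. Of the CCR4-NOT deadenylase, its recruiters and the other deadenylases, 14 of 18 named genes were tested and 0 were called by edgeR in the mean response, with a median log2 change of -0.06 against 0.07 over all genes. CNOT11, a subunit of the complex, was at -0.55 ± 0.24 (adjusted p = 0.585), and TOB2, which brings CCR4-NOT to mRNAs, at 0.73 ± 0.34 (0.641). Of the decapping and 5′ decay factors, 15 of 19 were tested and 0 were called, with a median of 0.05, and EDC4, the scaffold of the decapping enzyme, was at 0.87 ± 0.47 (0.707). EDC4 was higher in 4 of 6 animals and lower in 2. Of the RNA exosome, which degrades mRNA from the 3′ end, 12 of 16 were tested and 0 were called, with a median of -0.42 and 9 of 12 values below 0, where 42.6% of all genes lay below 0. With the term for the side of the first component the exosome median was -0.19. Omission of each library in turn gave -0.61 (LD post-induction 1 dropped) to -0.31 (LD post-induction 2 dropped). Genes lower in 6 of 6 animals without passing the test included the core subunits EXOSC3 (-0.78 ± 0.23, adjusted p = 0.268) and EXOSC9 (-1.12 ± 0.37, 0.368) and the nuclease DIS3 (-0.71 ± 0.21, 0.304). They were named for a small p in the same data, so their agreement over animals is not separate evidence. The same holds below for MAPKAPK3, RPS6KA1, MYC, FOS, VEGFA, FGF21 and BCL6. The share of all genes with such agreement was not counted.

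Other proteins that bind AU-rich elements or stem loops showed 0 calls by edgeR in 16 tested of 18 named, with 8 values below 0 and a median of 0.01. ZC3H12A (regnase-1), a nuclease that cuts inflammatory mRNAs, was at -1.18 ± 0.34 (adjusted p = 0.263), and N4BP1, a relative of it, at 1.58 ± 0.50 (0.337). N4BP1 was higher in 4 of 6 animals and lower in 2. YTHDF2, which reads methylated adenosine and also recruits CCR4-NOT, was at -0.99 ± 0.27 (0.239) and was called by DESeq2. In the mean response DESeq2 called 269 of the 12315 genes it tested. Of the kinases, phosphatases and 14-3-3 proteins that act on the family, 13 of 20 were tested and 0 were called by edgeR, with a median of 0.06. The kinase p38 and its effector MK2 are the best known of these regulators. MAPK14, which encodes p38 alpha, was at 0.41 ± 0.33 (adjusted p = 0.821) and MAPKAPK2, which encodes MK2, at -0.27 ± 0.19 (0.786). MAPKAPK3, the close relative of MK2, was at 5.20 ± 0.215 CPM in VHD post-induction, 9.71 ± 1.21 CPM in VHD baseline, 7.56 ± 0.902 CPM in LD post-induction and 10.5 ± 1.96 CPM in LD baseline. Its mean response was -0.69 ± 0.20 (adjusted p = 0.279), lower in 6 of 6 animals. RPS6KA1, the kinase RSK1, was at 31.6 ± 7.31, 15.3 ± 2.24, 28.2 ± 2.31 and 18.5 ± 3.68 CPM in the same groups, higher post-induction in 6 of 6 animals, at 0.83 ± 0.20 (adjusted p = 0.157), and was called by DESeq2.

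Among mRNAs listed as targets of the family in mammalian cells, 22 of 35 named genes were found and 17 tested. In the mean response 3 were called lower and 0 higher by edgeR, where 0.267% of all genes tested were called. Of the 17 values 12 were below 0, where 42.6% of all genes lay below 0. The list median was -0.20, against 0.07 over all genes. Omission of each library in turn gave list medians from -0.46 (VHD post-induction 2 dropped) to -0.16 (LD baseline 3 dropped). Most omissions moved the median further below 0, such as VHD baseline 3 and LD post-induction 3, both at -0.43. It came nearer 0 also when VHD post-induction 1 (-0.19) or LD post-induction 1 (-0.18) was dropped, and was -0.13 with upper-quartile factors. The single-library omissions tested 18 to 20 of the listed genes in place of 17, so their medians cover a changed set. With both libraries apart on the second component left out the list median was -0.48, without animal VHD3 -0.45 and with the term for the side of the first component -0.37. MYC, the growth regulator, fell by 2.91 ± 0.44 (adjusted p = 0.0246 by edgeR), with 7.16 ± 2.56 CPM in VHD post-induction, 59.5 ± 35.8 CPM in VHD baseline, 11.1 ± 5.32 CPM in LD post-induction and 75.9 ± 44.7 CPM in LD baseline. FOS, a subunit of AP-1, fell by 1.84 ± 0.34 (0.0423), with 8.97 ± 1.12, 24.1 ± 9.32, 9.95 ± 1.07 and 47.8 ± 38.4 CPM in the same groups. Each was lower post-induction in 6 of 6 animals, the direction in which ZFP36 moved. Both were named for a small p in the same data, so this agreement is not separate evidence. The target list was written from general knowledge, with earlier results of these data known, and membership differs in strength of evidence.

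The cytokine mRNAs for which ZFP36 is best known were scarce in these biopsies. TNF reached at most 18 counts in a library and 77 in all 12, IL6 35 and 116, CXCL1 18 and 63, IL10 7 and 16 and CSF2 4 and 16, so none of the 5 passed the filter on low counts and no change was detectable at this depth. VEGFA, the endothelial growth factor, was at 46.6 ± 9.17 CPM in VHD post-induction, 86.3 ± 5.72 CPM in VHD baseline, 48.7 ± 14.5 CPM in LD post-induction and 74.0 ± 11.3 CPM in LD baseline. It was lower in 6 of 6 animals at -0.75 ± 0.21 (adjusted p = 0.261 by edgeR) and was called by DESeq2, as were 269 of 12315 genes. PTGS2, NFKBIA and TNFAIP3, of the inflammatory response, were at 0.80, -0.57 and 0.13 on the log2 scale and were not called.

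Of the 5 liver mRNAs listed as targets, 0 were called by edgeR, with 4 values below 0 and a median of -0.72. Omission of each library in turn gave medians from -0.78 (VHD post-induction 3 dropped) to -0.45 (VHD baseline 2 dropped). The term for the side of the first component gave -0.83. FGF21, a fasting hormone of the liver, was at 1.12 ± 0.614 CPM in VHD post-induction, 6.39 ± 4.31 CPM in VHD baseline, 0.725 ± 0.448 CPM in LD post-induction and 2.87 ± 1.91 CPM in LD baseline, a mean response of -2.27 ± 0.52 (adjusted p = 0.125), lower in 6 of 6 animals. DESeq2 called it. CYP7A1, which catalyses the first step from cholesterol to bile acids, was at 5.08 ± 3.41 CPM in VHD post-induction, 26.0 ± 23.2 CPM in VHD baseline, 21.5 ± 18.4 CPM in LD post-induction and 12.4 ± 3.27 CPM in LD baseline, lower in 3 animals and higher in 3 (-0.78 ± 0.62, adjusted p = 0.811). BCL6, a transcriptional repressor, was at -0.72 ± 0.22 (0.298), lower in 6 of 6 animals, and IGF1, the growth factor, at 0.27 ± 0.26 (0.863).

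The immediate early genes, to which ZFP36 belongs, were listed without it, and 20 of 30 were found and 19 tested. In the mean response 5 were called lower and 0 higher by edgeR, 17 of 19 values were below 0 and the list median was -1.24. Over all genes tested 0.267% were called, 42.6% of values were below 0 and the median was 0.07. The list was chosen with earlier results of these data known, so its counts are not independent of them. FOS and MYC stand in both this list and the target list. Besides FOS, MYC and JUNB, whose values are given above, KLF6 fell by 2.40 ± 0.27 (adjusted p = 0.0117) and SGK1, a kinase induced by serum and glucocorticoids, fell by 2.08 ± 0.33 (0.0268). KLF6 was at 30.2 ± 2.27 CPM in VHD post-induction, 193 ± 40.8 CPM in VHD baseline, 41.2 ± 19.4 CPM in LD post-induction and 179 ± 61.6 CPM in LD baseline. SGK1 was at 15.9 ± 5.32, 64.1 ± 19.5, 16.8 ± 4.57 and 73.9 ± 46.3 CPM in the same groups. DESeq2 called 9 of the 16 it tested, these 5 and GADD45B, ATF3, FOSL2 and NR4A2, all lower. Over all genes it called 269 of 12315, of which 196 were lower. By edgeR GADD45B, a stress sensor, was at -2.50 ± 0.50 (adjusted p = 0.065), ATF3 at -1.77, FOSL2 at -1.33 and NR4A2 at -1.24. KLF10 was at -1.39 and was called by neither tool, while NR4A1 was at -0.04, FOSB at -0.12 and KLF4 at 0.20.

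Counts in these lists rested on few libraries, as did the count over all genes, 49 in the main fit. Of 18745 to 19333 genes tested, edgeR called 0 without VHD post-induction 1 or LD post-induction 2. It called 1 without VHD baseline 1 or LD baseline 3 and 2 without VHD post-induction 3. The count was 4 without LD post-induction 3, 12 without LD baseline 2, 42 without VHD post-induction 2, 40 without VHD baseline 3 and 71 without LD post-induction 1. Among the target mRNAs 0 were called without VHD post-induction 1 or 3, VHD baseline 1, LD post-induction 2 or 3, or LD baseline 2 or 3, 1 (MYC) without VHD post-induction 2, and 2 without VHD baseline 3 or LD post-induction 1. Of the immediate early genes, 0 were called without VHD post-induction 1 or LD post-induction 2, 3 without LD post-induction 1, and 1 (KLF6) without VHD post-induction 3, VHD baseline 1, LD post-induction 3, LD baseline 2 or LD baseline 3. With the animal as a replicate block 1 target and 1 immediate early gene (KLF6) were called, and 4 of all genes. Without VHD post-induction 2 and VHD baseline 3, 0 targets and 2 immediate early genes (JUNB and KLF6) were called, and 32 of all genes. Without animal VHD3 there were 0 in either list and 0 of all genes.

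**Figure D5:**
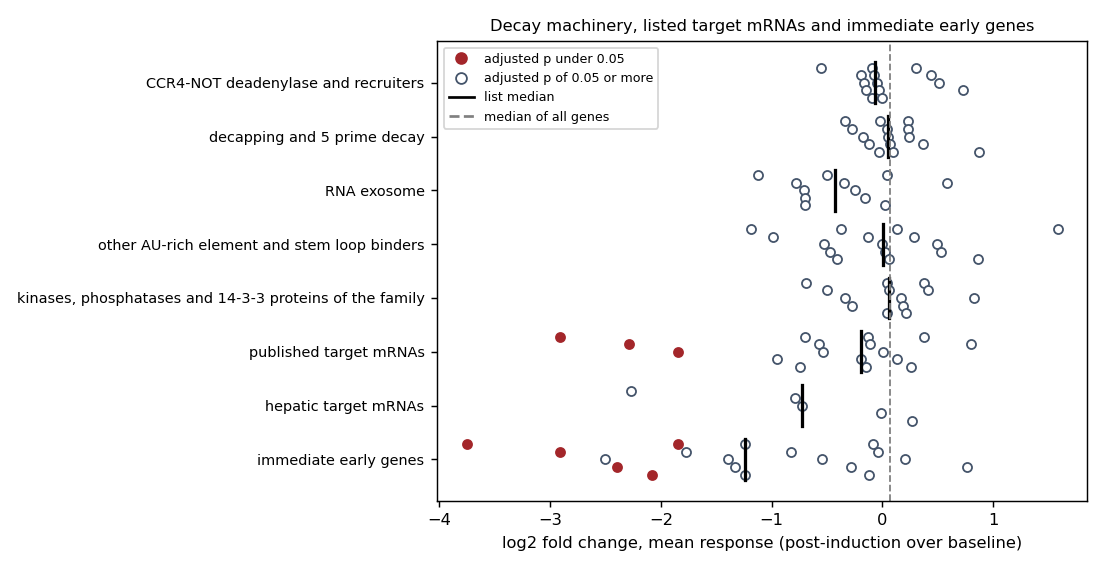
Mean response, post-induction over baseline, of each tested gene of the decay machinery, of the regulators, of the listed target mRNAs and of the immediate early genes, as log2 fold change, with called genes marked. The immediate early genes have the lowest list median, at -1.24, and the decay machinery has no called gene.

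Markers of other liver cell types were followed beside these changes. Summed macrophage and Kupffer cell markers (9 of 12 found) were 142 to 314 CPM post-induction and 154 to 506 CPM at baseline, and neutrophil markers (8 of 10) were 13.9 to 28.9 CPM and 16.2 to 45.6 CPM, each lower in 4 of 6 animals and highest in VHD baseline 3, which also had the highest ZFP36 and ZFP36L1. T and NK cell markers (8 of 12) were 13.1 to 20.9 CPM post-induction and 9.05 to 25.9 CPM at baseline, and B and plasma cell markers (5 of 8) 4.24 to 10.5 CPM and 2.90 to 9.11 CPM. Endothelial markers (9 of 11) were 153 to 392 CPM post-induction and 172 to 271 CPM at baseline, and stellate cell and fibroblast markers (9 of 10) 105 to 237 CPM and 89.2 to 190.5 CPM. Cholangiocyte markers (6 of 7) were 42.1 to 96.8 CPM post-induction and 32.1 to 71.8 CPM at baseline, higher in 6 of 6 animals, and erythrocyte markers (6 of 9) 7.68 to 20.1 CPM and 5.59 to 13.0 CPM, higher in 5 of 6 animals with a mean log2 change of 0.53, the largest of these lists, and with 6 of 6 markers above 0 in the mean response. The ranges of the time points overlapped for every list, 0 markers found were at 0 in all libraries, and 0 of these markers were called in the mean response by edgeR. Their part in the ZFP36 result was not tested.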

How the data were processed

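Liver mRNA was measured in 12 libraries of 6 animals. The deposited raw table holds expected counts per Ensembl transcript, 40.1% of them whole numbers. The submitters' processing notes name Partek, Bowtie, BWA and Mmul_8.0.1, while roles, versions and the annotation release were not stated in the sources used here. The deposited normalized table holds signal values equal to the expected count times 1 constant per library, and served 1 alternative. The miRNA tables were not used.

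The 40611 transcripts were summed into 23993 genes and rounded. No transcript had a total under 10. A start position may differ by 1 base, since the table does not say whether it counts from 0. filterByExpr by group left 18373 genes, both members among them. edgeR 4.0.16 (R 4.3.3, limma 3.58.1) fitted the 4 group means over all 12 libraries with TMM factors, robust dispersion and the quasi-likelihood F test, with Benjamini-Hochberg adjustment within each of 6 comparisons and a threshold of 0.05. This main fit had no term for the animal, so it did not use the pairing of libraries. The mean response is the average of the VHD and LD responses, post-induction over baseline. Steps were tested on simulated data. Replicates are separate animals. Changes per animal used log2 CPM with a prior count of 2. Numbers in the titles pair the samples, since the same animals were biopsied at both times. Correlations of the paired deviations were 0.41, -0.35 and 0.10 in VHD1, VHD2 and VHD3 and 0.07, -0.02 and 0.35 in LD1, LD2 and LD3.

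The members and gene lists were chosen with earlier results of these data known. Of each list, the genes past the threshold and up to 4 with the smallest p were eligible for naming, with all 5 liver targets and the 5 genes most correlated with each member. The markers, the scarce cytokines, PTGS2, NFKBIA, TNFAIP3, MAPK14, MAPKAPK2, GADD45B, ATF3, FOSL2, NR4A2, KLF10, NR4A1, FOSB and KLF4 were named after their values were seen. A few genes that this rule takes are not reported here. Alternatives were DESeq2 1.42.0, RLE and upper-quartile factors, no filter, a minimum of 1 CPM in 3 libraries, the animal as a block, limma voom with a random animal effect, limma-trend on the normalized values, fits per transcript, and omission of each library in turn. Fits omitting VHD post-induction 2 and VHD baseline 3, omitting animal VHD3, and with a term for the side of the first component were chosen after seeing the data. A planned search of promoter and protein sequences was not run.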

Additional observations from a re-analysis of the deposited data

How the results depend on the processing

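The fall of ZFP36 in the mean response kept its direction under all 25 alternatives (log2 change -3.20 to -2.48) and its call in 17. With the animal as a replicate block it was -2.96 (adjusted p = 0.0637 by edgeR, 4 genes called), with transcripts in place of genes -2.83 (0.103, 0 of 27008 called, 1670 at an unadjusted p under 0.05) and without animal VHD3 -2.61 (0.061, 0 called). Leaving out each library gave -3.20 to -2.68, called in 7 of 12, with 0 to 71 genes called in all. DESeq2 gave -2.86 with an adjusted p of 3.86e-10 and called 269 genes in place of 49, a term for the side of the first component 103, and the fit without VHD post-induction 2 and VHD baseline 3 called 32. ZFP36L1 was called under none of the 25 (log2 change -0.66 to -0.11, replicate block -0.35). Upper-quartile factors moved the median of all genes to 0.13, with ZFP36 at -2.78.

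Values near 0 changed sign without being called. Without VHD post-induction 2 and VHD baseline 3, the VHD response of ZFP36L1 was 0.27, ZFP36 in VHD against LD at baseline -0.18 and ZFP36L1 in VHD against LD post-induction 0.0515. Without animal VHD3, these were 0.06 for the VHD response of ZFP36L1, 0.20 for ZFP36 in the VHD response minus the LD response, -0.20 for ZFP36 in VHD against LD at baseline and 0.0023 for ZFP36 in VHD against LD post-induction. Leaving out each library, VHD against LD was -0.23 to 0.48 at baseline and -0.91 to 0.36 post-induction for ZFP36, and -0.75 to 0.14 and -0.23 to 0.0687 for ZFP36L1. The VHD response minus the LD response was -1.04 to 0.23 for ZFP36 and -0.20 to 0.69 for ZFP36L1, and the VHD response of ZFP36L1 was -0.76 to 0.12. The cause was not tested.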
